A study of Sinonovacula constricta with 9 samples.

Results

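The 324 unigenes described here were abundant in whole juveniles of the razor clam Sinonovacula constricta and kept nearly the same level at 3 salinities. A unigene is an entry of assembled transcripts listed under a numbered cluster identifier, and its value may pool transcripts of several lengths. The series lists 246672 of them, and 955 had a mean level of at least 100 FPKM over 9 libraries. FPKM counts the fragments sequenced from a unigene relative to its length and to the size of the library. Members were chosen on the deposited FPKM by a mean of at least 100, an SD of at most 0.12 of the mean over the 9 libraries, and a largest group mean at most 1.2 times the smallest. The 100 unigenes with the most counts were left out beforehand, which left 855 candidates, of which 324 were chosen. Of the 531 others, 389 exceeded both limits, 85 exceeded the limit on the SD alone and 57 the limit on group means alone.

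All animals were juveniles sampled on day 15 after fertilization, taken whole, so each library mixes all tissues. One group spent 6 h at 5 psu (low salinity), another at 15 psu (the control, called optimal by the labels) and another at 25 psu (high salinity), where psu is the practical salinity unit. Each group held 3 libraries, with totals from 15897903 to 18427234 estimated counts over the 9. Whether replicates came from separate cultures is not in the labels, so the spread between them, and any p-value, may be technical. Among the members, replicates 1 and 3 at 5 psu and replicate 1 at 25 psu stood apart in the deposited FPKM. The main group results are also given without them. The identifiers carry no gene names in the files, so no function, genome position, sequence or tissue marker could be given for any unigene.

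Marine and estuarine bivalves let the salt content of their body fluid follow that of the water. Their cells then restore volume by moving ions and by raising or lowering free amino acids and related solutes, a response that changes the transcription of some genes and leaves others as they were. Transcripts of the second kind are used as internal references when expression is measured by quantitative PCR, and they are often sought among genes for ribosomes, translation factors, cytoskeleton and basic energy metabolism. In bulk samples, fewer cells of a type and less RNA per cell cannot be told apart, and a steady level in whole animals may hide opposite changes in single tissues.

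The members' mean level ran from 100.1 to 10412 FPKM, with a median of 244 FPKM and quartiles of 148 and 553 FPKM. Their SD over the 9 libraries ran from 3.26% to 11.99% of the mean, with a median of 7.92%. These spreads follow from the choice and are given as a description. The share of candidates that met the rule was 134 of 414 (32.4%) from 100 to 200 FPKM, 103 of 280 (36.8%) from 200 to 500 FPKM, 40 of 81 (49.4%) from 500 to 1000 FPKM and 47 of 80 (58.8%) at 1000 FPKM and over. Among candidates, the rule was met most often in the most abundant class, which describes the choice and was not tested. That class also had the highest share when the rule was applied without replicate 3 at 5 psu (62.0%), without replicate 1 at 25 psu (62.8%) or without replicate 1 at 5 psu (55.3%). These choices share most of their libraries with the first, so they are no independent check.

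**Figure D1:**
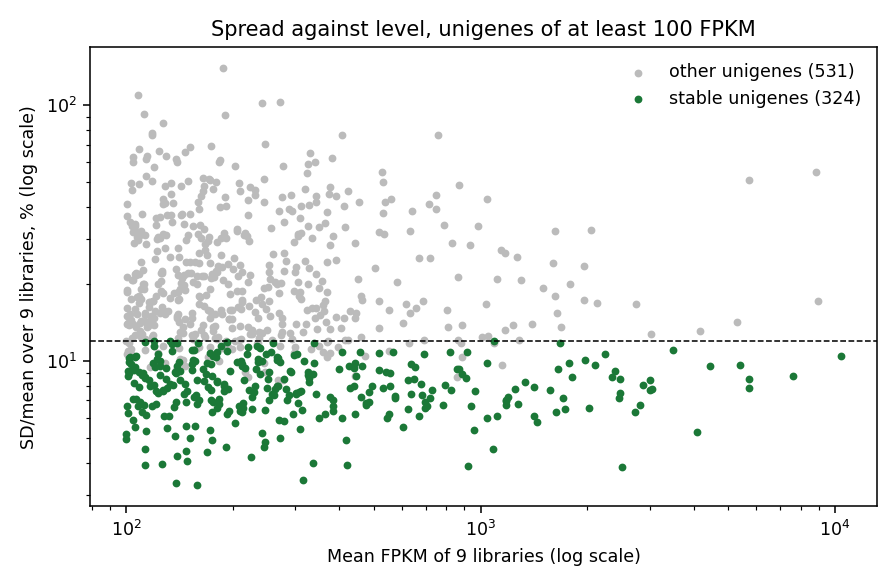
Each point is 1 unigene of at least 100 FPKM outside the 100 with most counts, with its mean FPKM of 9 libraries on a log x axis and its SD as a percentage of the mean on a log y axis. The dashed line marks the limit of 12%; the 324 chosen unigenes (green) reach down to 3.26%, and grey points under the line failed the limit on group means.

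The most abundant member was Cluster-8005.111294. It stood at 12246, 10281 and 8737 FPKM in replicates 1 to 3 at 5 psu, at 10912, 9969 and 10953 FPKM at 15 psu, and at 9504, 9659 and 11450 FPKM at 25 psu. The groups overlapped, and the libraries at 5 psu held both its highest and its lowest value. Cluster-8005.111595 had the next highest mean, at 7401 ± 818 FPKM at 5 psu, 7409 ± 519 FPKM at 15 psu and 7962 ± 722 FPKM at 25 psu (SD, n = 3 each). Cluster-8005.112102 followed with 5705 ± 915, 5684 ± 271 and 5800 ± 160 FPKM (SD, n = 3 each) at 5, 15 and 25 psu. At 5 psu its replicates were 6527, 5869 and 4719 FPKM, so replicate 1 was its highest library and replicate 3 its lowest, as for Cluster-8005.111294. All of these have a short effective length, as implied by the deposited count and FPKM, at 88.2, 71.9 and 107 nucleotides. The effective length differs between libraries and need not be the length of any assembled sequence, which was not available here. Levels at so short an effective length depend strongly on how that length was set.

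The steadiest member by the rule's own measure was Cluster-8005.114445. It stood at 152, 159 and 162 FPKM in replicates 1 to 3 at 5 psu, at 157, 162 and 163 FPKM at 15 psu and at 159, 151 and 167 FPKM at 25 psu, an SD of 3.26% of its mean. All 3 groups overlapped. Cluster-8005.105796 was at 139.8 ± 5.26, 137 ± 2.59 and 139 ± 6.73 FPKM (SD, n = 3 each) at 5, 15 and 25 psu, with an SD of 3.32% over all libraries. Cluster-8005.110516 had an SD of 3.43%, but its groups did not all overlap. Its libraries at 5 psu, at 297, 314 and 299 FPKM, lay below those at 15 psu (321, 329 and 321 FPKM) and at 25 psu (322, 319.5 and 322 FPKM). The spread of a unigene over all libraries therefore does not tell whether its groups are apart. Counting noise alone would give an SD of 1.80%, 1.97% and 0.937% of the mean at the mean counts of these members, 3091, 2586 and 11391. The spread of each of them exceeded it. This did not hold for every member: Cluster-8005.110858 had an SD of 3.94% of its mean, against counting noise of 4.92%.

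**Figure D2:**
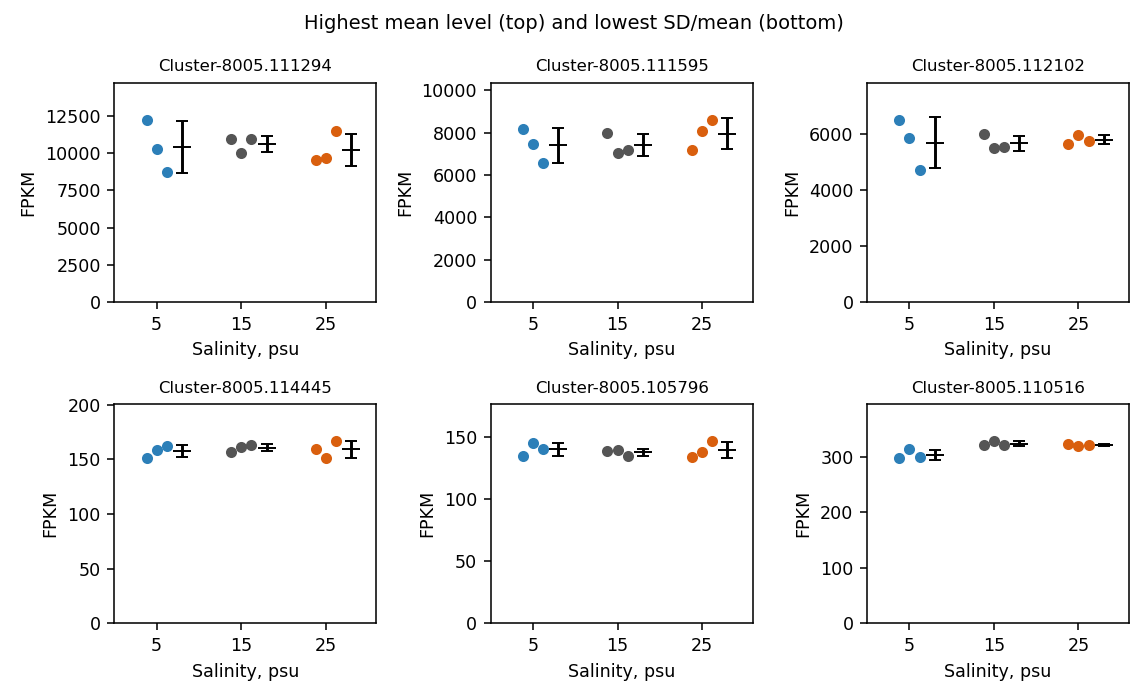
FPKM (y axis, from 0) of the 3 members with the highest mean (top row) and the 3 with the lowest SD relative to the mean (bottom row) at 5, 15 and 25 psu (x axis). Points are libraries in the order of replicate number, and the dash with bars is the mean ± SD of 3 libraries; the top row spreads most at 5 psu, from 8737 to 12246 FPKM for Cluster-8005.111294.

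The spread within groups and the differences between group means can be set side by side for the 324 members. The pooled SD within groups had a median of 7.198% of the mean, and the gap between the highest and lowest group mean a median of 9.90%. For 107 members (33.0%) the gap was smaller than the SD within groups. That number was 80 without replicate 3 at 5 psu, 105 without replicate 1 at 25 psu and 64 without replicate 1 at 5 psu. The other 531 candidates had medians of 12.7% and 32.2%, and the gap was smaller than the SD within groups for 84 of them (15.8%). Both measures were limited by the rule, so the contrast between members and others describes the choice.

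Ranks follow from the same FPKM that the rule limited and are a description. Ranked by FPKM among all unigenes of a library, a member's best rank had a median of 407.5 and its worst a median of 520. Cluster-8005.111294 was between rank 1 and rank 5 in every library. Together the members took 8.98% ± 0.309 of the counts at 5 psu, 9.22% ± 0.193 at 15 psu and 9.00% ± 0.280 at 25 psu (SD, n = 3 each). These groups overlapped, with lowest libraries of 8.67%, 9.05% and 8.69% and highest libraries of 9.28%, 9.43% and 9.23%. The mean at 5 psu was 9.14% without replicate 3 and 8.83% without replicate 1, and that at 25 psu 9.16% without replicate 1. Over the same libraries the 100 unigenes with most counts took 31.5% ± 3.89, 30.7% ± 1.36 and 29.5% ± 0.545 of the counts.

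The order of the group means was not the same for all members. The means went up stepwise with salinity in 87 (26.9%) and down stepwise in 72 (22.2%), all within the limit of 1.2-fold. The 15 psu mean was the highest in 100 members and the lowest in 65, against 115 and 139 for the 5 psu mean and 109 and 120 for the 25 psu mean. Thus the control lay in the middle for 159 of 324, and for 150 without replicate 3 at 5 psu, 158 without replicate 1 at 25 psu and 164 without replicate 1 at 5 psu. The 2 stepwise orders changed places in frequency without replicate 3 at 5 psu, with 71 members going up and 79 going down. Among the 531 other candidates the stepwise orders were found in 183 (34.5%) and 151 (28.4%).

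In the deposited FPKM, a shift common to many members set single libraries apart. In replicate 3 at 5 psu the median member stood at 94.8% of its own mean over the 9 libraries, and in replicate 1 at 25 psu at 96.2%. In the other 7 libraries this median ran from 98.5% to 102.5%. Replicate 3 at 5 psu was the lowest of the 9 libraries for 127 members and replicate 1 at 25 psu for 100, while control replicate 3 was the lowest for 1. Replicate 1 at 5 psu was the highest library for 70 members, the most of any, and the lowest for 43. The members also spread more widely there: the quartiles were 87.1% and 105% in replicate 3 at 5 psu but 95.9% and 102% in control replicate 2. By the labels nothing separates these libraries from the other replicates.

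**Figure D3:**
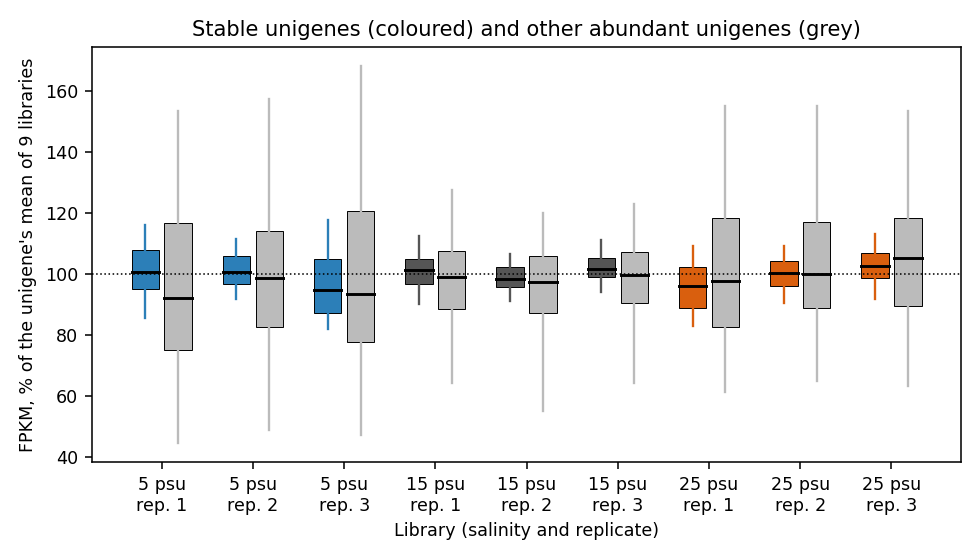
For each of the 9 libraries (x axis), FPKM as a percentage of the unigene's own mean over all libraries (y axis). Boxes are quartiles, the thick line the median and whiskers the 5th and 95th percentiles, for the 324 stable unigenes (coloured by salinity) and the 531 other candidates (grey); the lowest coloured medians are 94.8% in replicate 3 at 5 psu and 96.2% in replicate 1 at 25 psu.

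Different members were low in each of these libraries. Below 90% of their own mean were 110 members (34.0%) in replicate 3 at 5 psu and 97 (29.9%) in replicate 1 at 25 psu, but only 4 (1.23%) in both. The 106 that were low in the former alone had a median of 85.6% there and 102.5% in replicate 1 at 25 psu. The 93 that were low in the latter alone had a median of 86.3% there and 106% in replicate 3 at 5 psu. Both sets were slightly above their mean in the library where the other set was low. Because each mean includes the low library, the other libraries lie above it on average. In the libraries outside this pair the medians ran from 98.1% to 104.9% for the 106 and from 98.5% to 104.6% for the 93. A limit on the SD makes it harder for a unigene to be low in both, and no test was made of this split, which was chosen after the values were seen. Among unigenes not held to that limit, 26 of the 531 other candidates (4.90%), 2 of the 100 with most counts and 635 of 8991 of 10 to 100 FPKM (7.06%) were low in both. Low in replicate 3 at 5 psu were 45.8%, 68% and 42.0% of these classes, in that order. Low in replicate 1 at 25 psu were 39.7%, 19% and 32.2%.

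The sets differed in level. Of the 106 members low in replicate 3 at 5 psu alone, 51 (48.1%) had a mean of at least 500 FPKM, against 17 of 93 (18.3%) low in replicate 1 at 25 psu alone and 17 of 121 (14.0%) low in neither. Among the 47 members of at least 1000 FPKM, the median in replicate 3 at 5 psu was 85.5% of the mean and in replicate 1 of that group 108%, whereas the 134 members of 100 to 200 FPKM had medians of 99.9% and 99.2%. The 100 unigenes with most counts, which are no members, moved alike, with a median of 86.7% in replicate 3 and 106% in replicate 1 at 5 psu, and they took 27.5% and 35.3% of the counts of these libraries. Whether this share bears on the members' values was not tested.

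**Figure D4:**
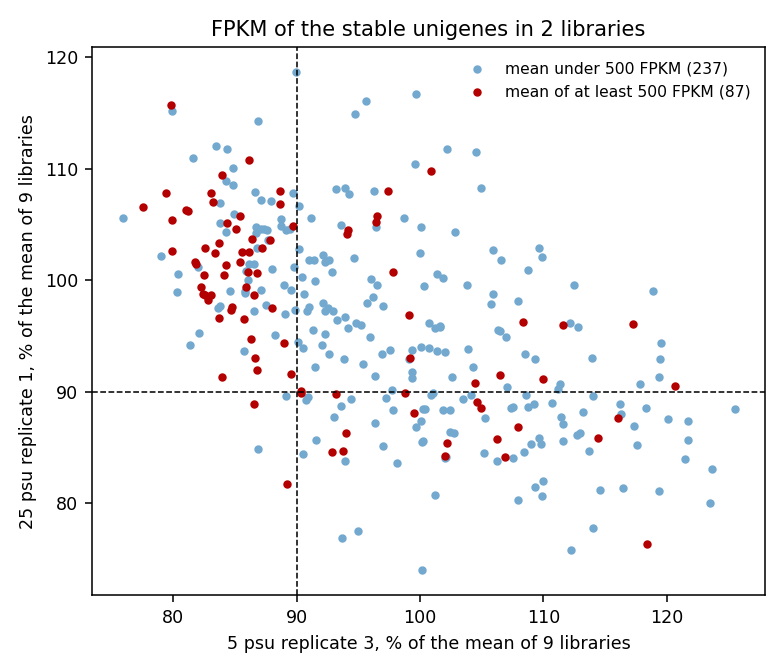
Each point is 1 of the 324 stable unigenes, with its FPKM in replicate 3 at 5 psu (x axis) and in replicate 1 at 25 psu (y axis), both as a percentage of its mean over 9 libraries. Dashed lines mark 90%; 4 points lie in the lower left corner, and 53 of the 87 points of at least 500 FPKM (red) lie left of the vertical line.

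Other scalings of the libraries changed this picture. With TMM factors, which centre the middle of the distribution of log ratios, the median member stood at 88.8% of its mean in replicate 3 at 5 psu and at 109% in replicate 1 at 5 psu, against 94.8% and 100.7% in the deposited FPKM. With DESeq2's size factors these values were 89.8% and 109%, and after scaling each library's FPKM to the same sum (TPM) 97.9% and 100.1%. The members were chosen on FPKM, so their nearness to 100% there, and in TPM, was set by the choice. Replicate 1 at 25 psu was at 95.4% with TMM factors and 95.2% with DESeq2's. Control replicate 2 was then nearly as low, at 95.6% and 95.3%, so replicate 1 at 25 psu no longer stood apart from it. In TPM, replicate 1 at 25 psu was the lowest library, at 95.3%. The other 531 candidates stood in replicate 1 at 5 psu at 92.3% in FPKM and at 99.8% with TMM factors, and in replicate 3 at 93.4% and 87.2%. Applied to FPKM with TMM factors the rule chose 291 unigenes, of which 261 were members, and with DESeq2's size factors 300, of which 271 were members. Without replicate 3 at 5 psu it chose 347 unigenes, 293 of them members, and without replicate 1 at 25 psu 334, of which 306 were members.

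Apart from level and spread, the members covered a wide range of effective lengths. The implied effective length had a median of 666 nucleotides, with quartiles of 302 and 1145, and ran from 6.77 nucleotides in Cluster-8005.107720 to 6723 in Cluster-8005.109524. The other candidates had a median of 427 nucleotides and quartiles of 69.2 and 1114. The difference lay mostly in the shortest effective lengths, which need not be those of the assembled sequences. Under 50 nucleotides, 7 of 130 candidates (5.38%) met the rule, against 81 of 165 (49.1%) from 200 to 500 nucleotides, 94 of 197 (47.7%) from 500 to 1000 and 31 of 86 (36.0%) at 2000 and over. No test was made, since unigenes are not independent and many share reads.

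In the members of shortest effective length, FPKM and counts told different stories. Cluster-8005.107720 was at 1186 ± 38.1, 1233 ± 114 and 1162 ± 108 FPKM at 5, 15 and 25 psu (SD, n = 3 each), group means within 1.06-fold. Its counts were 136, 111 and 161 at 5 psu, 206, 194 and 114 at 15 psu and 122, 97 and 105 at 25 psu. Scaled to library totals as CPM, which takes no account of length, these were 7.97 ± 1.203, 9.89 ± 2.69 and 6.57 ± 0.485 (SD, n = 3 each), group means that differed by 1.51-fold. The effective length that count and FPKM imply differed between libraries, from 5.51 nucleotides in replicate 3 at 25 psu to 9.24 in control replicate 1. In members of 200 nucleotides and over, the implied length of a library deviated by nearly the same number of nucleotides at all lengths, with a median of 11.4 in control replicate 1 and -6.33 in replicate 1 at 25 psu for those of 200 to 500 nucleotides. The 7 members under 50 nucleotides deviated less, by a median of 4.30 and -2.10 nucleotides, which is a larger part of their length.

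Measured in CPM, none of the 7 members under 50 nucleotides stayed within both limits, and their median SD was 17.5% of the mean in place of 10.6% in FPKM. From 50 to 100 nucleotides 9 of 17 stayed within them, from 500 to 1000 nucleotides 92 of 94 and from 1000 to 2000 nucleotides 66 of 67. Over all lengths 297 of 324 did, and 24 of the 27 that did not were under 500 nucleotides. Conversely, 8 candidates were within the limits in CPM without being members.

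**Figure D5:**
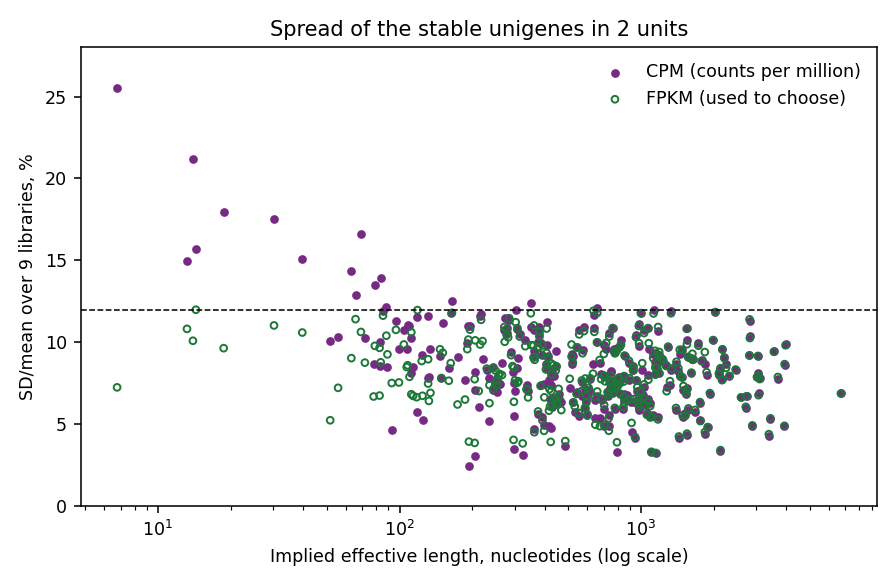
SD over 9 libraries as a percentage of the mean (y axis) against the implied effective length in nucleotides (log x axis) for the 324 stable unigenes, in FPKM (open green circles) and in CPM (filled purple). The dashed line marks the limit of 12%; the purple points reach 25.5% at 6.77 nucleotides and all lie within the limit at 1000 nucleotides and over, where their highest value is 11.96%.

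Where a value pools transcripts of several lengths, the implied length moves with their mix. After the library's offset was removed, the length of members of at least 200 nucleotides differed by less than 1 nucleotide over the 9 libraries in 272 of 273 (99.6%). Among the other candidates of that length this held for 329 of 334 (98.5%). The exception among these members was Cluster-8005.112484, singled out after its values were seen, whose implied length ran from 1797 to 1866 nucleotides.

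All 324 members belonged to the same assembly cluster, the largest, but so did 529 of the 531 other candidates and 72.2% of all unigenes. Within that cluster, 269 members (83.02%) carried running numbers from 100000 up to 120000, a range that holds 11.2% of the cluster's unigenes. The same range held 76.7% of the other candidates in the cluster and 99 of the 100 unigenes with most counts, so abundant unigenes shared it whether stable or not. What the numbering reflects is not given in the sources used here. Counts were whole in all 9 libraries for 142 members (43.8%) and in none for 129 (39.8%). A count that is not whole contains reads divided among similar sequences, so levels of the latter members are uncertain to that extent. The other candidates had nearly the same shares, 45.6% and 40.7%.

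Replicates of most members differed by more than counting noise. The variance within groups of counts scaled to library totals had a median of 12.4 times the mean count, where counting noise alone gives 1. The largest ratio was 223, in Cluster-8005.111294, and the smallest 0.260, in Cluster-8005.110858. In the latter the counts lay between 374 and 451 in all libraries. Its level was 24.8 ± 0.195, 24.1 ± 0.443 and 24.4 ± 0.946 CPM (SD, n = 3 each) at 5, 15 and 25 psu. Only 4 members had a ratio under 1.

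The edgeR quasi-likelihood test compared the salinities over all 71915 unigenes with enough counts, the 324 members among them. Because the rule limited the same differences, the members' counts of calls are given beside the background and nothing is read from them. Between 5 and 15 psu no member was called (edgeR, Benjamini-Hochberg adjusted p under 0.05) against 2.85% of all tested unigenes (1.26% higher and 1.6% lower at 5 psu). DESeq2's Wald test called 6 members there (1.85%, against 6.78% of all unigenes it gave an adjusted p) and limma-voom 1 (0.309%, against 2.75%). Between 25 and 15 psu no member was called by edgeR either, against a background of 2.35% (1.67% higher and 0.679% lower at 25 psu). Here DESeq2 called 4 (1.23%, against 3.69%) and limma-voom 2 (0.617%, against 2.39%). Of the 519 other candidates tested, edgeR called 109 (21.0%) between 5 and 15 psu and 72 (13.9%) between 25 and 15 psu. For 25 against 5 psu it called 211 (40.7%). These candidates had failed the rule on the same values, so their shares follow from the choice as well.

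Log2 fold changes of the members had a median of -0.0050 at 5 against 15 psu, with quartiles of -0.07 and 0.08, and of -0.0011 at 25 against 15 psu, with quartiles of -0.08 and 0.06. The medians over all tested unigenes were -0.0023 and -0.01. The median SE of a member was 0.10 in both comparisons. Both use the same control libraries. The largest change in either was that of Cluster-8005.107720, the member of shortest effective length, at -0.55 (SE 0.22) at 25 against 15 psu.

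Between 25 and 5 psu, 3 members were called by edgeR, 2 higher and 1 lower at 25 psu, against a background of 11.1% (6.48% higher and 4.63% lower). DESeq2 called 14 (4.32%, against 8.81%) and limma-voom 3 (0.926%, against 9.97%). With DESeq2's size factors in place of TMM factors edgeR again called 3, 1 higher and 2 lower, against 11.2% of all tested unigenes. Among the 3 called members the largest difference was in Cluster-8005.104233, with 354, 378 and 379 FPKM at 5 psu, 359, 393 and 402 FPKM at 15 psu and 459, 428 and 445 FPKM at 25 psu. All libraries at 25 psu lay above the other 6, and the log2 fold change against 5 psu was 0.27 (SE 0.06). Cluster-8005.107003 stood at 142 ± 2.52, 165 ± 2.39 and 169.7 ± 7.08 FPKM (SD, n = 3 each) at 5, 15 and 25 psu, with its libraries at 5 psu below all others (0.26, SE 0.07). Cluster-8005.108205 went the other way, at 217 ± 6.00, 189 ± 13.3 and 182 ± 4.52 FPKM (SD, n = 3 each), a log2 fold change of -0.26 (SE 0.07). Each of these ratios of group means, 1.199, 1.195 and 1.195 in FPKM, was just under the limit of 1.2. Leaving out 1 library moved the number of members called from 3 to between 0 and 8: it was 8, all higher at 25 psu, without replicate 1 at 5 psu (background 8.7%) and 8, 2 higher and 6 lower, without replicate 3 at 5 psu (9.67%). It was 0 without replicate 2 at 5 psu (6.62%), replicate 2 at 25 psu (6.26%) or replicate 3 at 25 psu (6.7%), and 4 without replicate 1 at 25 psu (6.52%). Without any 1 control it was 1, against 8.65% to 9.31%. The largest log2 fold change of any member in this comparison was -0.40 (SE 0.16), in Cluster-8005.118817 with an effective length of 18.7 nucleotides. That unigene was not called.

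The 3 libraries of a pair of groups did not overlap in FPKM for 67 members (20.7%) between 5 and 15 psu, against 20.5% of all tested unigenes. At 5 psu 20 of these were higher (6.17% of members) and 47 lower (14.5%), against backgrounds of 8.46% and 12%. Between 25 and 15 psu the same was seen in 61 members (18.8%), against 24.3%. Of them 27 were higher (8.33% of members) and 34 lower (10.5%) at 25 psu, against 11.5% and 12.7%. Between 25 and 5 psu 83 members (25.6%) did not overlap, against 30.2%. At 25 psu 53 were higher (16.4% of members) and 30 lower (9.26%), against 15.8% and 14.4%. Groups of fewer libraries fail to overlap more often: without replicate 3 at 5 psu the count was 129 between 5 and 15 psu (39.8%, against 33.9%) and 135 between 25 and 5 psu (41.7%, against 42.3%). Without replicate 1 at 25 psu it was 109 between 25 and 15 psu (33.6%, against 34.4%) and 108 between 25 and 5 psu (33.3%, against 38.4%). Without replicate 1 at 5 psu it was 138 between 5 and 15 psu (42.6%, against 32.2%) and 150 between 25 and 5 psu (46.3%, against 41.9%). The rule used these comparisons, and nothing is read from these shares.

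Values the rule had not used were obtained by applying it to 8 libraries and looking at the ninth. The unigenes chosen without a library numbered from 301 to 347. Of those chosen without replicate 2 at 15 psu, 312 of 313 (99.7%) lay within 20% of their mean over the 8 when that library was looked at. In 6 of the 9 libraries this share was between 96.6% and 99.7%. It was lower in replicate 1 at 25 psu (304 of 334, 91.0%), in replicate 1 at 5 psu (272 of 328, 82.9%) and in replicate 3 at 5 psu (281 of 347, 81.0%). Among candidates not chosen, the share was 46.0% to 56.7% for the libraries at 5 psu, 51.2% to 61.8% for those at 25 psu and 73.98% to 79.9% for the control libraries, so the control libraries were highest and the others overlapped. Members chosen again in all 9 rounds numbered 229 (70.7%), and 443 unigenes were chosen in at least 1 round. With TMM factors the share within 20% was 88.7% in replicate 1 at 25 psu. At 5 psu it was 73.1% in replicate 1 and 64.9% in replicate 3. Candidates not chosen then stood at 55.7%, 45.8% and 44.5%. With DESeq2's size factors the chosen unigenes stood at 89.1%, 71.3% and 70.2%. Either scaling kept at least 96.8% in every other library. For a limit of 10%, the deposited FPKM gave 56.0%, 53.4% and 35.7% in the same libraries.

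A whole salinity was left out in the same way. Chosen on 15 and 25 psu alone, 517 unigenes met the rule, and the mean at 5 psu lay within 20% of their mean for 434 (83.9%), against 132 of 350 candidates not chosen (37.7%). With 25 psu left out, 395 were chosen and 362 (91.6%) lay within 20% at 25 psu, against 240 of 450 (53.3%). With the control left out, 318 were chosen and 307 (96.5%) lay within 20% at 15 psu, against 429 of 545 (78.7%). A unigene steady at a pair of salinities was therefore within 20% at the remaining one in most cases. The sets of 517, 395 and 318 unigenes were chosen on different libraries and were not equally strict. The order of these shares therefore does not rank the salinities. At 5 psu the share was 81.8% without replicate 3 and 80.7% without replicate 1 of that group, and at 25 psu it was 90.9% without replicate 1. Of the 517, 20 were more than 1.5-fold away at 5 psu, against 4 of 395 at 25 psu and 1 of 318 at 15 psu.

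The limits of the rule cut through a continuous range. Just inside the minimum of 100 FPKM stood Cluster-8005.106535 at 100.1 FPKM and just outside Cluster-8005.122314 at 99.9 FPKM. At the limit on the SD these were Cluster-8005.111537 with 11.99% of the mean and Cluster-8005.114553 with 12.03%, of 14.4 and 3.99 nucleotides in effective length. At the limit on group means they were Cluster-8005.124676 with a ratio of 1.1998 and Cluster-8005.112586 with 1.202. The last of these, at an effective length of 51.7 nucleotides, had a ratio of 1.40 in CPM.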

How the data were processed

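RNA was extracted from whole juveniles with Trizol and made into libraries with a NEBNext Ultra RNA kit, per the labels' protocols. For each library the authors deposited every unigene's estimated count of reads and its FPKM, both with 2 decimals, per the file headers. The submitters' processing notes name Bowtie2 and RSEM without versions, and neither the assembler nor any filter is stated there. Between 25.0% and 27.6% of the deposited counts in a library are not whole.

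The rule was applied to the deposited FPKM of all 9 libraries, with the sample SD. Counts were rounded and tested with edgeR 4.0.16 (R 4.3.3; filterByExpr with a count minimum of 10, TMM, robust quasi-likelihood F test, 1 model of 3 groups, Benjamini-Hochberg at 0.05 over 71915 unigenes). The SE of a log2 fold change is its size over the root of its F value. CPM were computed from the deposited counts and library totals. Effective length is the deposited count divided by FPKM and the library total. Its library offset is the median deviation among unigenes averaging 2000 counts or more. Alternatives used DESeq2 1.42.0, limma 3.58.1 (voom, or log2(FPKM + 1) and log2(FPKM + 0.1)), other limits and scalings, a replicate block and left-out libraries; the group results without single libraries were added after the data were seen. Backgrounds are shares of unigenes with an adjusted p. The edgeR fit and the rule were tested on simulated data.

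Named are the extremes of level, spread, length and limits, and the members called. The members, lists and tests were chosen with earlier results of these data known. Gene lists could not be used without gene names. Totals of 15897903 to 18427234 counts set the depth; counting intervals cover counting error only.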

Additional observations from a re-analysis of the deposited data

How the results depend on the processing

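The number of members became 561 and 190 with a minimum of 50 and 200 FPKM, 151 with group means within 1.1-fold and 517 without the 5 psu libraries. The other 22 settings kept it within 1.5 times of 324, from 272 to 395. These include the population SD (343), CPM in place of FPKM (305) and an effective length of at least 100 nucleotides (300). The settings just named were chosen after the data were seen. Without 1 library it ran from 301 to 347. Members called between 5 and 15 psu numbered 1 with DESeq2's size factors (2.83% of all tested) and with limma-voom (2.75%), and 6 with DESeq2's Wald test (6.78%). Without 1 library they numbered 0 to 1, against 1.38% to 2.92% of all tested. Between 25 and 15 psu they numbered 2 with library totals alone (2.03% of all tested), with limma-voom (2.39%) and with both compared groups fitted alone (3.73%), and 4 with DESeq2's Wald test (3.69%). Without 1 library they numbered 0 to 2, against 0.816% to 3.11% of all tested. Between 25 and 5 psu they numbered 11 with library totals alone (3.4% of members, against 10.5% of all tested), 14 with DESeq2's Wald test (4.32%, against 8.81%), 1 without a filter on low counts (0.309%, against 3.32%), 7 and 5 with limma on log2(FPKM + 1) and log2(FPKM + 0.1) (2.16% and 1.54%, against 8.73% and 8.58%), 0 with limma on unfiltered log2(FPKM + 1) (against 1.81%), 0 with both groups fitted alone (against 9.43%) and 0 to 8 without 1 library (against 6.26% to 9.67%). The cause was not tested. The log2 fold changes of the 3 members called kept their sign in all 19 alternatives; the call was lost in 7 for Cluster-8005.104233, 12 for Cluster-8005.107003 and 14 for Cluster-8005.108205. The members' share of counts, 9.07% over the 9 libraries, was 13.1% with the 100 unigenes with most counts taken out of the total, and 9.02% to 9.12% without 1 library. The median share within 20% in a library not used for the choice, 97.7%, was 77.4% for a limit of 10%.

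Same-numbered replicates of different groups did not deviate together (r from -0.0169 to 0.106). Only 1 of 9 correlations was over 0.1, and replicate numbers are treated as names alone. With a replicate block, 1 member was called between 25 and 5 psu (against 9.71% of all tested). None was called between 5 and 15 psu (against 2.26%) or between 25 and 15 psu (against 1.74%).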

Other observations

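Unigenes within the rule's limits at a pair of salinities and far off at the other appeared when the rule was applied with 1 salinity left out. They were singled out after their values were seen and are given as values. Cluster-8005.112024 stood at 173 ± 2.79 FPKM at 15 psu and 147 ± 10.4 FPKM at 25 psu, but at 376 ± 7.49 FPKM at 5 psu (SD, n = 3 each). Cluster-8005.104346 stood at 227 ± 10.2 FPKM at 5 psu and 191 ± 10.1 FPKM at 15 psu, but at 69.7 ± 1.90 FPKM at 25 psu. In both, the libraries of the pair did not overlap either, and the group means fell stepwise with salinity. With TMM factors Cluster-8005.104346 was not chosen without 25 psu, nor was Cluster-8005.106009 without 15 psu.

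Others departed at the control salinity. Cluster-8005.118576 was at 121 ± 5.15 FPKM at 5 psu and 118 ± 8.16 FPKM at 25 psu, and at 60.1 ± 2.50 FPKM at 15 psu (SD, n = 3 each), lower in 3 of 3 control libraries. Cluster-8005.106009 was at 111 ± 15.9 FPKM and 104 ± 4.28 FPKM at the extremes and at 160.2 ± 2.73 FPKM at 15 psu, higher in 3 of 3.

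Of the 8 candidates steady in CPM but not in FPKM, Cluster-8005.112066 held 11373 counts on average, with an SD of 6.69% of the mean in CPM and 20.04% in FPKM, at an implied length that ran from 267 nucleotides in replicate 1 at 5 psu to 518 in control replicate 2.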
